A study of Mus musculus with 4 samples.

Results

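Natural killer (NK) cells of the aged mouse kidney were taken from single-cell libraries by a rule on raw UMI counts (unique molecular identifiers, each standing for 1 captured transcript). A barcode had to hold at least 500 UMIs, at least 300 genes and at most 50% mitochondrial UMIs. It also had to hold at least 1 UMI of Ptprc, at least 2 of the NK receptor genes Ncr1, Klrb1c and Klre1 together, and at least 1 of Eomes, Gzma, Klra8 and Klra4 together. At most 1 UMI of the CD3 genes, 9 of the C1q genes and 3 of Lrp2 and Slc34a1 were allowed, and none of Cd79a. Of 76278 barcodes, 50605 passed the depth and mitochondrial filters and 159 met the whole rule. The BPTES libraries held 50 and 56 of them, the DMSO libraries 32 and 21.

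The libraries came from kidneys of male C57BL/6 mice, 19 months old when treatment began, which received either BPTES or its vehicle DMSO for 1 month. BPTES is a small molecule that blocks the use of glutamine by cells. Liberase-digested kidneys were sorted on CD45, and CD45-negative and CD45-positive cells were recombined at a fixed ratio before GEM-X 3' library preparation, so shares of all cells do not reflect the tissue. Each group had 2 libraries, labelled sample 1 and sample 2. Nothing in the labels says that they came from separate animals, and p-values therefore measure the spread between these libraries, which may be technical.

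NK cells are innate lymphocytes that kill stressed or infected cells without rearranged antigen receptors. Activating and inhibitory receptors on their surface are weighed against each other, and killing proceeds through perforin, which opens the target membrane, and granzymes, which enter and trigger death. In tissues they sit beside other group 1 innate lymphoid cells, which share many receptors but carry the integrin CD49a (Itga1) in place of CD49b (Itga2) and usually lack the transcription factor Eomes.

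Upstream sequences are given for a receptor gene of the member rule, for the transcription factor gene that fell and for a chemokine receptor gene whose groups did not overlap, because these genes recur in the results. Each window covers the 250 bases before the RefSeq start of the gene on GRCm38.p6, 5′ to 3′ on the coding strand, and all of them lie on the plus strand. Ncr1 stands at chr7:4337465-4337714, Irf8 at chr8:120736108-120736357 and Cxcr6 at chr9:123806227-123806476. For Ncr1 and Irf8, 2 starts are listed and the upstream one was used. Capitals mark matches to a searched motif, on either strand.
Ncr1: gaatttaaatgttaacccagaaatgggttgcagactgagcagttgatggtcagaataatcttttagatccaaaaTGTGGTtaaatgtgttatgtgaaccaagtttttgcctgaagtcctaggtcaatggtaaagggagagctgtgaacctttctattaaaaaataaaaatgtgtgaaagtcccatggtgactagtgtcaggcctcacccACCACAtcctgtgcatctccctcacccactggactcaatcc
Irf8: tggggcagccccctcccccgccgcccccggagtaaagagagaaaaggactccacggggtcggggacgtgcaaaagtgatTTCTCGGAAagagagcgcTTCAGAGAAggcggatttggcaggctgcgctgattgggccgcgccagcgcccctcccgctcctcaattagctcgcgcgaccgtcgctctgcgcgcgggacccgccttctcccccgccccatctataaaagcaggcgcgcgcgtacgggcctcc
Cxcr6: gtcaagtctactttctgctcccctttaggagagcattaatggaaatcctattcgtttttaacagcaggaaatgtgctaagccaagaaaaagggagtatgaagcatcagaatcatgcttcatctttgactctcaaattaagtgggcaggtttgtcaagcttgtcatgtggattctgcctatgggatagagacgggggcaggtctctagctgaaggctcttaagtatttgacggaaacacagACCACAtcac
In all, 10 motifs were searched in the windows of 13 genes that the rule or the results name, and in 32851 RefSeq windows of the same length. The RUNX letters TGTGGT occurred in 7 of the 13, against 14% of all windows. In Ncr1 they began 176 bases before the start and, on the other strand, ran from 41 to 36 bases before it, and in Cxcr6 they ran from 10 to 5 bases before the start. The STAT letters TTCNNNGAA matched 1 of the 13, Irf8, at 2 places, against 7.02% of all windows. The IRF letters GAAA, 2 bases of any kind and GAAA again matched 3 of the 13 against 2.98%, and the ETS letters CAGGAAG matched 1 against 10.8%. No window of the 13 held the T-box letters AGGTGTGA (1.12% of all), GGTGTGA (3.33%) or GGTGTNA (8.61%), the stricter IRF letters with CT as the 2 middle bases (0.207%), or the AP-1 letters TGAGTCA (4.46%) and TGANTCA (6.75%). The T-box, IRF and AP-1 versions contain or overlap one another. A match describes these letters and is not a bound site.

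The 159 members summed to 741399 and 721522 UMIs with BPTES and to 428905 and 296150 with DMSO. Median depth per cell was alike, from 12202 to 13388 UMIs per library, and the median mitochondrial share lay between 1.43% and 1.69%. No barcode sequence was shared between the members of different libraries, while 269 of 50332 distinct barcode sequences that passed the filters occurred in more than 1 library. The DMSO values thus rest on fewer cells. A single cell can carry much of a gene there.

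The members were chosen by their UMI counts of the rule's genes, so the values of those genes are a description. The receptor sum was not near its limit: 158 members held 3 or more UMIs, 1 held 2, and 7 barcodes with 1 lay just outside. The effector sum was a closer limit. It was exactly 1 in 22 members, while 277 barcodes met every other condition with a sum of 0, as 82 and 106 in the BPTES and 64 and 25 in the DMSO libraries. Of the members, 10 held 1 CD3 UMI, 5 barcodes with 2 lay just outside, and 288 with 3 or more were set aside.

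Among the rule's genes, Ncr1 encodes the activating receptor NKp46. It stood at 801 and 745 CPM (UMIs per 1000000 UMIs of the library's NK sum, after TMM scaling) in the BPTES libraries and at 822 and 820 in the DMSO libraries. Gzma, the gene of granzyme A, stood at 4181 and 3638 CPM with BPTES and at 6443 and 6773 with DMSO. Its groups did not overlap. It was detected in 82.0% and 83.9% of the BPTES cells and in 81.2% and 76.2% of the DMSO cells. Eomes, a T-box factor of NK identity, ranged from 130 and 225 CPM with BPTES to 324 and 161 with DMSO, and those groups overlapped. The Ly49 receptor genes Klra8 and Klra4 overlapped as well, with 525 and 768 against 853 and 618 CPM for Klra8 and 530 and 791 against 984 and 441 CPM for Klra4. Klrb1c, which encodes NK1.1, stood at 571 and 481 CPM with BPTES and at 800 and 642 with DMSO.

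Genes the rule did not use bore on the label. Transcripts of Klrk1 (NKG2D) were found in 50 of 50, 56 of 56, 31 of 32 and 21 of 21 members of the 4 libraries, and those of Nkg7, a granule membrane protein, in 48, 55, 32 and 21. Prf1 (perforin) was found in 147 of the 159 members (92.5%) and in 0.135% of the tubule barcodes described below. These genes are not particular to the members. Prf1 was also found in 26.7% of T cells and in 65% of the 277 barcodes that met the rest of the rule but held no effector UMI, Klrk1 stood at 731 to 1140 CPM in those barcodes, and Nkg7 at 486 to 628 CPM in T cells. Here and below, CPM of T cells were TMM-scaled on the T cell sums. CPM of the 277 barcodes were taken on their own sums, without TMM scaling. B cell markers reached at most 19.1 CPM in sum over 6 genes in any library, neutrophil markers at most 38.1 CPM over 6 genes, and basophil and mast cell markers at most 9.17 CPM over 6 genes, with 3 of these at 0 UMIs. T cell markers other than the CD3 genes summed to between 614 and 861 CPM over 11 genes, most of it from the T cell receptor constant genes Trbc1 and Trbc2. The macrophage list reached 1970 CPM in DMSO library 1, where 94.9% of the UMIs of Cd74 came from 1 cell, against 239 to 629 CPM in the other 3 libraries. Proximal tubule markers summed to between 447 and 575 CPM over 6 genes, endothelial markers to between 95.6 and 395 CPM over 6 genes, and markers of group 2 innate lymphoid cells to between 184 and 321 CPM over 8 genes with 3 at 0 UMIs. Plasma cell markers summed to 661 and 824 CPM with BPTES against 266 and 198 CPM with DMSO over 11 genes.

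The members were not one uniform population. Integrin transcripts split them into 79 cells with UMIs of Itga2 and none of Itga1, 38 with Itga1 and no Itga2, 33 with both and 9 with neither. Eomes was detected in 69 of the 79 (87.3%), in 7 of the 38 (18.4%), in 8 of the 33 (24.2%) and in 7 of the 9 (77.8%). The rule thus admitted cells with the integrin of other group 1 innate lymphoid cells and no detected Eomes, and no separate cell type name is given to them here. Eomes and Itga2 UMIs were near absent from barcodes with at least 10 UMIs of Lrp2 and Slc34a1, a proximal tubule set of 18583 barcodes with a median of 18737 UMIs. There, 0.199% held an Eomes UMI and 0.317% an Itga2 UMI. Itga1 was found in 49.4% of those tubule barcodes and in 44.7% of the members (median 13023 UMIs). An Itga1 UMI was thus not particular to the members, and the part of tubule transcripts in it was not tested. After thinning to 3000 UMIs, the Itga1 shares were 15.9% and 28.9%.

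The makeup differed between libraries. Cells with Itga1 and no Itga2 were 38.0% and 21.4% of members with BPTES against 15.6% and 9.52% with DMSO. Eomes was detected in 40.0% and 62.5% with BPTES and in 65.6% and 71.4% with DMSO. BPTES library 1 stood lowest for Eomes and highest for Itga1 without Itga2. In one random thinning of each cell to 3000 UMIs, Itga1 without Itga2 was found in 40.0% and 16.1% with BPTES and in 18.8% and 4.76% with DMSO, and those groups overlapped. Eomes was detected in 24.0% and 46.4% against 43.8% and 47.6% in that draw, and in 28.0% and 37.5% against 46.9% and 38.1% in a separate draw, so whether the groups overlapped depended on the draw. These splits were drawn from the same cells and carry no test.

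**Figure D1:**
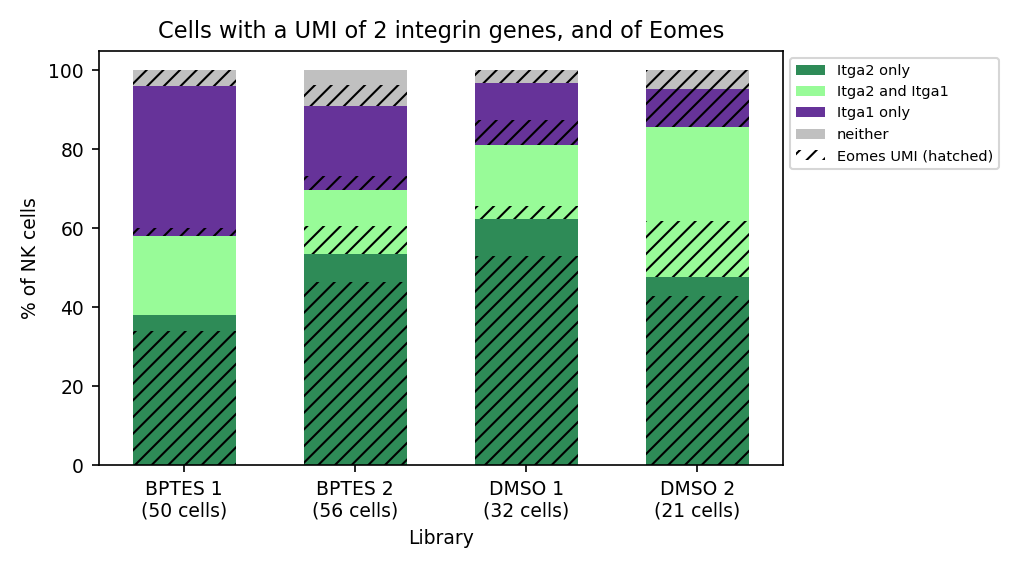
Share of NK cells (y axis, %) in each library (x axis) by detected Itga2 and Itga1 UMIs, shown as stacked colours, with the hatched part of each colour standing for cells that also held an Eomes UMI. Itga1 without Itga2 made up 38.0% of the cells of BPTES library 1 and 9.52% of those of DMSO library 2, and most of the hatching lies in the cells with Itga2 alone.

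The 277 barcodes just outside the effector condition were richer in the group 1 innate lymphoid cell genes than the members. Their Cxcr6 level was 369 and 487 CPM in the BPTES and 297 and 381 CPM in the DMSO libraries, and their Cd200r1 level 171 and 200 against 215 and 177 CPM. Itga2 stood there between 15 and 41.2 CPM. Cxcr6 was not particular to them, at 514 and 469 CPM with BPTES and 508 and 392 CPM with DMSO in T cells. A Cd200r1 UMI was found in 29.4% of T cells and in 70% of the 277 barcodes. Genes of the group 2 innate lymphoid cell list summed there to between 411 and 633 CPM, against 184 to 321 CPM in the members. The 277 barcodes were also rich in macrophage transcripts. The 7 genes of the macrophage list summed to 5581 and 3152 CPM with BPTES and to 7803 and 3657 with DMSO, against 245, 629, 1970 and 239 CPM in the members, while the 8 group 1 innate lymphoid cell genes summed to between 2901 and 3281 CPM. The fit that adds these barcodes to the members, called below the fit without the effector condition, passed the myeloid genes Cd209a and Mrc1 and the endothelial genes Flt1 and Emcn among others. The part of such transcripts in the calls that were lost in that fit was not tested.

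Next, the number of NK cells was compared between treatments, as a share of leukocyte barcodes, those that passed the filters with a Ptprc UMI and at most 3 UMIs of Lrp2 and Slc34a1. NK cells were more frequent among leukocyte barcodes after BPTES, at 1.11% and 1.32% of 4508 and 4251 barcodes, than after DMSO, at 0.648% and 0.478% of 4941 and 4391. The exact binomial 95% intervals were 0.824 to 1.46% and 0.997 to 1.71% with BPTES and 0.443 to 0.913% and 0.296 to 0.730% with DMSO, and they cover counting error only. The groups did not overlap. The means were 1.21% ± 0.147 (SD, n = 2) and 0.563% ± 0.120 (SD, n = 2). With edgeR's quasi-likelihood test on barcode counts the log2 ratio was 1.09 (SE 0.24, adjusted p = 0.00292 over 5 classes), and 3 of the 5 classes passed (60%). The exact two-sided permutation test gave p = 0.333, the smallest that 2 libraries a group allow.

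**Figure D2:**
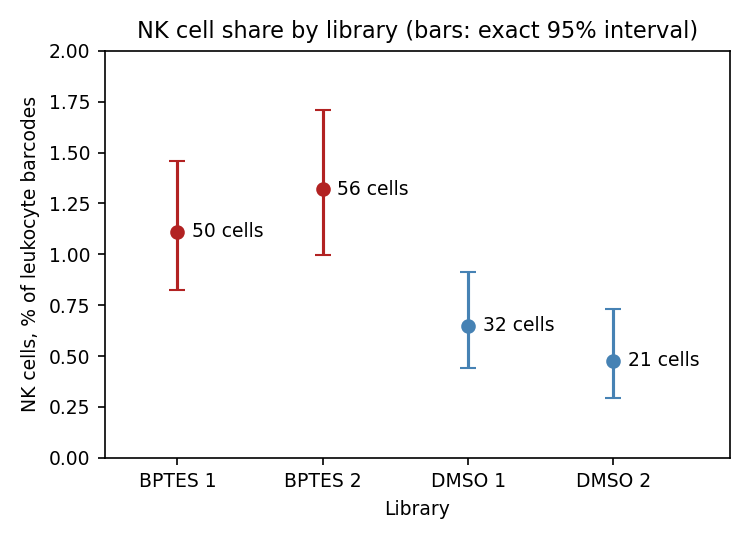
NK cells as a share of leukocyte barcodes (y axis, %) in each of the 4 libraries (x axis), with exact 95% binomial intervals and the number of cells. Both BPTES libraries, at 1.11% and 1.32%, lie above both DMSO libraries, at 0.648% and 0.478%.

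A further 2 classes passed. Cd79a-positive barcodes were 9.38% and 9.46% with BPTES, against 5.57% and 5.03% with DMSO (log2 ratio 0.83, SE 0.11, edgeR adjusted p = 9.01e-05), while C1q-high barcodes were 27.0% and 26.2% against 32.7% and 31.7% (log2 ratio -0.28, SE 0.08, edgeR adjusted p = 0.0126). CD3-positive barcodes did not pass the test, at 20.1% and 24.0% against 21.5% and 23.9%. Shares of a fixed whole depend on one another. The NK difference lost its call when members had to hold an Eomes UMI (log2 ratio 0.70, adjusted p = 0.132), which left 20 and 35 cells against 21 and 15, and it fell just short with the replicate number as a block (log2 ratio 1.09, adjusted p = 0.0513).

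Gene expression was then compared on UMI sums per library. With edgeR's quasi-likelihood test, 6 of 7136 genes passed at an adjusted p under 0.05 (0.0841%), 2 higher (0.028% of those tested) and 4 lower (0.0561%) with BPTES. DESeq2 called 8 of 14539 (0.055%). The transcription factor gene Irf8 fell, as did Dscam, Snap47 and Cabcoco1, and the immunoglobulin genes Igkc and Igha rose. An unadjusted p under 0.05 was reached by 457 genes (6.4%), and the groups did not overlap for 35.7% of all genes tested (17.7% higher, 18% lower). By sign alone, 49.8% of the genes tested were higher and 50.2% lower. Leaving out a library raised the count, to 44 without BPTES 1, 48 without BPTES 2, 44 without DMSO 1 and 96 without DMSO 2, so the number of calls is not firm, while the 6 genes were still called in 3 of these fits and 5 of them in the fit without DMSO 2.

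Irf8 encodes an interferon regulatory factor needed for several myeloid lineages and active in NK cells. It stood at 261 and 295 CPM with BPTES and at 711 and 649 CPM with DMSO. Both BPTES libraries lay below both DMSO libraries, with a log2 fold change of -1.28 ± 0.20 SE (edgeR adjusted p = 0.00518). The gene was detected in 33 of 50 and 41 of 56 cells with BPTES and in 29 of 32 and 18 of 21 with DMSO. After thinning to 3000 UMIs it was found in 34.0% and 41.1% of cells against 68.8% and 57.1%, and in 3.25% of the tubule barcodes. The thinned share was 3.34% in T cells and 25.8% in the 277 receptor-positive barcodes with no effector UMI. Those barcodes held 141 and 260 CPM with BPTES and 262 and 70.9 CPM with DMSO, which overlapped. One cell gave 19.1% and 16.6% of the members' Irf8 UMIs with BPTES and 14.6% and 25.8% with DMSO. Among members with an Eomes UMI the log2 fold change was -0.38 (SE 0.25, adjusted p = 0.931), and without the effector condition it was -0.67 (SE 0.19, adjusted p = 0.493), so the call held for the full member set and for neither of these. Irf8 lies on chr8:120736358-120756694 (GRCm38.p6, RefSeq), a protein-coding gene.

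Dscam, which encodes a cell adhesion molecule best known from neurons, stood at 99.5 and 54.5 CPM with BPTES and at 413 and 273 CPM with DMSO. These UMIs came from few cells, 11 and 9 with BPTES and 7 and 7 with DMSO, and 1 cell gave 35.7% and 45.0% of them in the DMSO libraries. The share of cells with a UMI overlapped between the groups, at 22% and 16.1% with BPTES and 21.9% and 33.3% with DMSO, and after thinning to 3000 UMIs at 14% and 7.14% against 12.5% and 23.8%. The log2 fold change was -2.16 (SE 0.29, edgeR adjusted p = 0.00879), and it passed also among members with an Eomes UMI, at -2.61 (SE 0.29, adjusted p = 0.00206), and without the effector condition, at -1.28 (SE 0.16, adjusted p = 0.0298). A Dscam UMI was found in 0.231% of tubule barcodes, 7.37% of T cells and 21.4% of the members. The share was 37.5% in the 277 receptor-positive barcodes with no effector UMI, so Dscam was not particular to the members. Those barcodes held 203 and 230 CPM with BPTES and 455 and 390 CPM with DMSO.

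Snap47, a SNARE-family gene, stood at 17 and 15 CPM with BPTES and at 82.2 and 140 CPM with DMSO, a log2 fold change of -2.74 ± 0.38 SE (edgeR adjusted p = 0.00204). After thinning to 3000 UMIs, it was found in 2.00% and 5.36% of BPTES cells and in 25% and 19% of DMSO cells. The share was 13.5% in tubule barcodes, 4.33% in T cells and 6.75% in the receptor-positive barcodes with no effector UMI. The BPTES shares lay below the tubule share, and the DMSO shares lay above each of these. One cell held 23.5% and 34.1% of the Snap47 UMIs in the DMSO libraries. Without the effector condition the log2 fold change was -1.33 and the call was lost (edgeR adjusted p = 0.621), and in members with an Eomes UMI the gene did not reach the low-count filter. Cabcoco1, named here although its mean lay under the 50 CPM set for naming, stood at 7.86 and 8.17 CPM against 41.1 and 82.0 CPM, with a log2 fold change of -2.86 ± 0.52 SE (edgeR adjusted p = 0.0296). It did not pass without DMSO library 2 (log2 fold change -2.33, adjusted p = 0.0612), with DESeq2 (adjusted p = 0.885), without the effector condition (-3.06, adjusted p = 0.608) or in members with an Eomes UMI (-2.54, adjusted p = 0.236). One cell held 29.4% and 33.3% of its UMIs in the DMSO libraries. The thinned Cabcoco1 shares were 2.00% and 1.79% with BPTES, 6.25% and 19.0% with DMSO and 6.48% in tubule barcodes. In T cells the share was 1.34%, and in the receptor-positive barcodes with no effector UMI 1.98%. The part of tubule transcripts in these values was not tested.

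Igkc, the kappa light chain constant gene, stood at 288 and 417 CPM with BPTES and at 91.8 and 68.3 CPM with DMSO, a log2 fold change of 2.12 ± 0.26 SE (edgeR adjusted p = 0.000405). Igha, the constant gene of IgA heavy chains, stood at 124 and 191 CPM against 14.5 and 6.83 CPM, a log2 fold change of 3.78 ± 0.41 SE (edgeR adjusted p = 0.000149). NK cells make no immunoglobulin. Transcripts of both genes were also found in T cells and tubule barcodes of the same libraries, and their source in the members was not tested. Without the effector condition Igha had a log2 fold change of 3.84 (SE 0.59) and did not pass (edgeR adjusted p = 0.387). At 3000 UMIs an Igkc UMI was found in 62% and 82.1% of the members with BPTES and in 12.5% and 23.8% with DMSO. In tubule barcodes of the same libraries it was found in 57.4% and 68% against 19.7% and 20.2%, and in T cells in 66.1% and 79.1% against 25.1% and 26.2%. Without thinning, an Igha UMI was found in 88% and 85.7% of the members with BPTES and in 18.8% and 9.52% with DMSO, and in 83% and 92.1% against 20.4% and 11.1% of the deeper tubule barcodes. T cells of the same libraries held 393 and 488 CPM of Igkc with BPTES against 86.9 and 96.0 with DMSO, and the treatment difference in NK cells minus that in T cells was -0.13 for Igkc and -0.23 for Igha on the log2 scale (SE 0.25 and 0.50, edgeR adjusted p = 1 for each). Cd79a-positive barcodes were also more frequent with BPTES, as given above, and their part in these values was not tested.

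**Figure D3:**
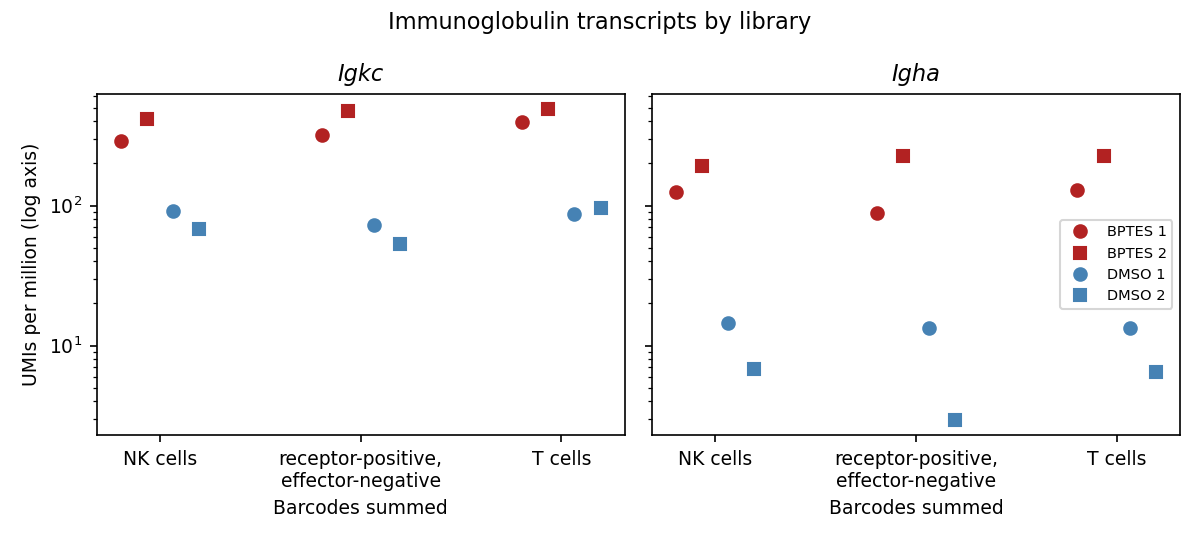
Igkc (left) and Igha (right) in CPM (y axis, log) for the library sums of NK cells, of the 277 receptor-positive barcodes with no effector UMI, and of T cells (x axis), one point per library. Values of the 277 barcodes carry no TMM scaling. In all 3 sets of barcodes the BPTES libraries lie above the DMSO libraries, for Igkc in NK cells at 288 and 417 against 91.8 and 68.3.

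No gene of the granule and death ligand list passed the test, and the genes stood on either side. Prf1, whose product perforin opens the target membrane, stood at 598 and 649 CPM with BPTES and at 1387 and 1086 CPM with DMSO. The groups did not overlap, and the log2 fold change was -0.98 (SE 0.19, edgeR adjusted p = 0.0568, against DESeq2 adjusted p = 0.00418). Nearly every member held the transcript (47 of 50, 49 of 56, 30 of 32 and 21 of 21). Serpinb9 encodes an inhibitor of granzyme B that protects the killer itself, and it stood at 317 and 354 against 520 and 700 CPM (log2 change -0.85 ± 0.21 SE, edgeR adjusted p = 0.200), with 33.7% of its UMIs in DMSO library 2 from 1 cell. Nkg7 stood at 1888 and 1589 against 2499 and 2240 CPM. Gzmb, the granzyme B gene, overlapped, with 592 and 370 against 911 and 516 CPM. Srgn, the serglycin core protein gene of the granule matrix, overlapped at 1203 and 927 against 1032 and 1359 CPM, as did Ctsw, a cathepsin gene, at 786 and 618 against 769 and 628. Rab27a, which acts in granule release, stood higher with BPTES at 126 and 109 against 53.2 and 82.0 CPM (log2 change 0.83 ± 0.29 SE, edgeR adjusted p = 0.510). Tnfsf10, the gene of the death ligand TRAIL, did so too at 106 and 81.7 against 67.7 and 41.0 CPM (log2 change 0.76 ± 0.31 SE, edgeR adjusted p = 0.689). Of 18 tested genes in the list, 11 were lower and 7 higher, and the median log2 fold change was -0.16, against 0 over all genes.

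Chemokine transcripts were abundant. Ccl5, which recruits T cells and monocytes, stood at 5915 and 5115 CPM with BPTES and at 9628 and 9939 CPM with DMSO, with groups that did not overlap (log2 change -0.82 ± 0.18 SE, edgeR adjusted p = 0.0799, DESeq2 adjusted p = 1.85e-05). In DMSO library 2, 1 cell gave 32.3% of these UMIs. Xcl1, a ligand for cross-presenting dendritic cells, stood at 2023 and 935 against 1100 and 1072 CPM, and 65.0% of its UMIs in BPTES library 1 came from 1 cell. Ccl4 and Ccl3, macrophage inflammatory protein genes, varied as much within groups as between them, at 2196 and 960 against 1602 and 915 CPM for Ccl4 and at 902 and 248 against 756 and 328 CPM for Ccl3. In BPTES library 1, 1 cell gave 57.3% of the Ccl4 UMIs and 52.7% of the Ccl3 UMIs. None of the 9 tested genes of the list passed.

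No receptor gene passed the test. Klrk1 stood at 1206 and 1360 CPM with BPTES and 1131 and 1189 with DMSO, and Klrd1, the CD94 partner of NKG2 receptors, at 838 and 701 against 684 and 813. Among 15 tested activating receptors 10 were higher and 5 lower, with a median log2 fold change of 0.06, and among 13 inhibitory receptors 6 were higher and 7 lower, with a median of -0.20. Cd226, an activating adhesion receptor, stood at 532 and 334 against 251 and 283 CPM (log2 change 0.70 ± 0.23 SE, edgeR adjusted p = 0.469). Of 11 Klra genes, of which the member rule itself used Klra8 and Klra4, 3 or more were detected in 80 of the 159 members (50.3%), that is in 38.0% and 60.7% with BPTES against 56.2% and 42.9% with DMSO. The adaptors that carry receptor signals were lower for 13 of 19 genes and higher for 6, and none passed. Tyrobp (DAP12) stood at 1447 and 1618 against 1735 and 1452 CPM, and Fcer1g at 1413 and 1359 against 1498 and 1533 CPM.

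Of 25 tested cytokine receptor and STAT genes 11 were higher and 14 lower (median -0.07), and none passed. Among 23 tested transcription factors 10 were higher and 13 lower, and Irf8 was the 1 that passed, against 0.0841% of all genes. Id2, which keeps precursors out of the B and T lineages, stood at 1459 and 1127 against 1394 and 1274 CPM, and Ets1 at 905 and 1033 against 836 and 990 CPM. Tbx21, the gene of T-bet, stood at 377 and 381 against 491 and 386 CPM. Klf2, a factor of lymphocyte quiescence and egress, stood at 439 and 648 against 759 and 844 CPM (log2 change -0.55 ± 0.21 SE, edgeR adjusted p = 0.619). Bhlhe40, a basic helix-loop-helix repressor, stood at 161 and 193 against 358 and 362 CPM (log2 change -1.01 ± 0.21 SE, edgeR adjusted p = 0.0568).

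**Figure D4:**
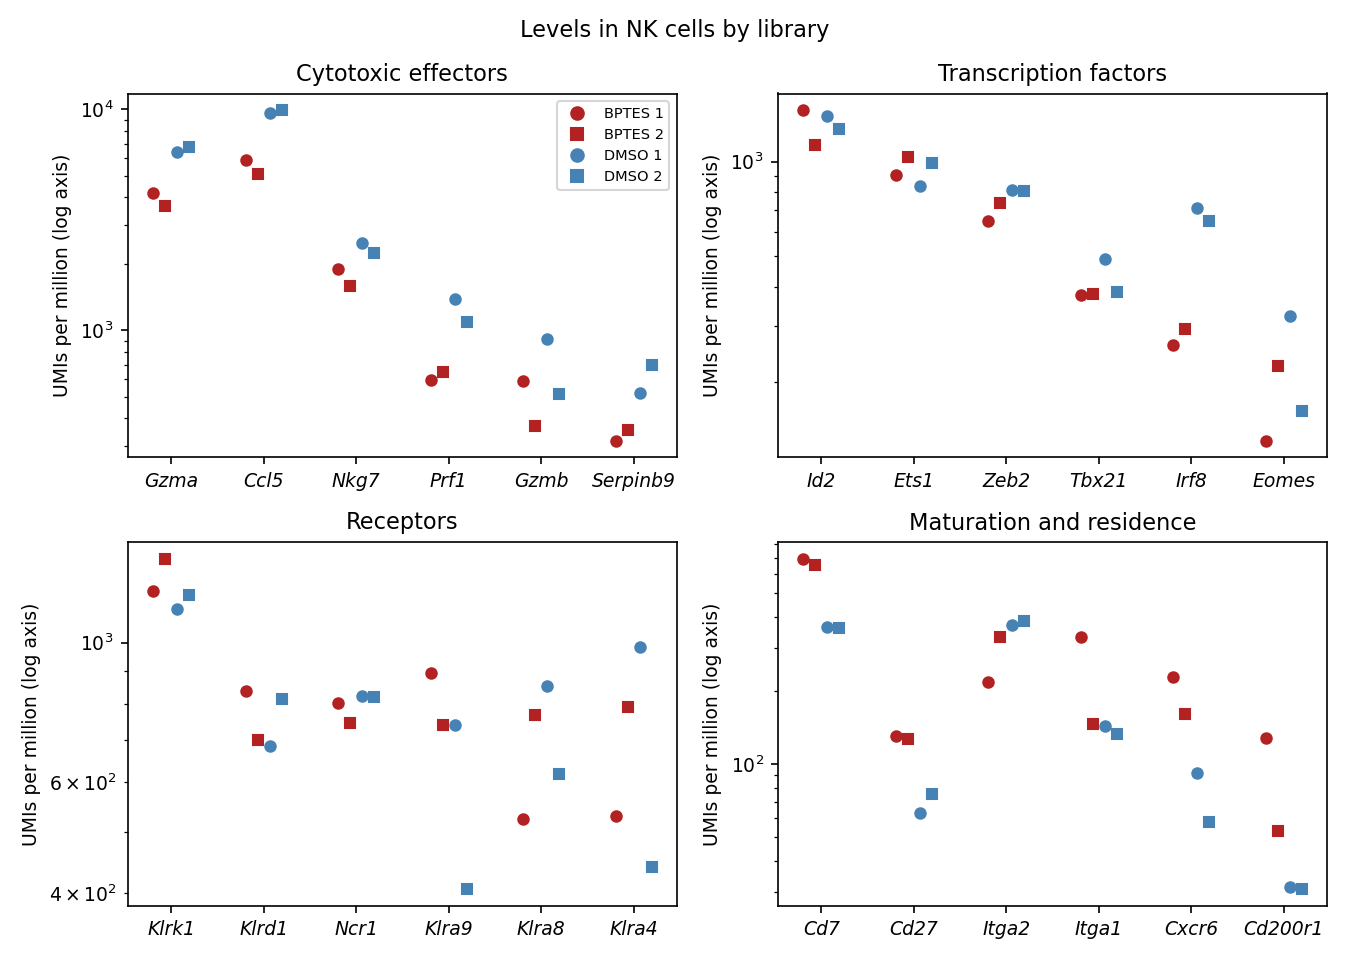
CPM (y axis, log) in the NK cells of each library for 24 genes (x axis) in 4 groups of function, one point per library. Irf8, Prf1 and Ccl5 lie lower in both BPTES libraries, Cd7 and Cxcr6 higher, and Klrd1, Id2 and Ets1 overlap.

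Maturation and residence genes were compared next. NK cells pass from a CD27-positive stage to a CD11b-positive one as they mature. Of 15 tested genes of the mature stage 14 were lower and 1 was higher with BPTES, with a median log2 fold change of -0.31, and of 12 genes of the immature stage 9 were higher and 3 lower, with a median of 0.24. No gene of either list passed, and 0.0841% of all genes did. The mature list summed to 7844 and 6514 CPM with BPTES and to 9082 and 7661 with DMSO, and those sums overlapped. Its most abundant genes had log2 changes of -0.09 ± 0.18 SE (Ahnak), -0.08 ± 0.20 (Itgb1), -0.37 ± 0.42 (S100a6) and -0.31 ± 0.23 (Lgals1). The groups overlapped for all of these but Ahnak. Itgam, the CD11b gene, stood at 99.5 and 139 CPM with BPTES and 220 and 157 with DMSO (log2 change -0.67 ± 0.24 SE, edgeR adjusted p = 0.555). Cd27 stood at 130 and 127 against 62.8 and 75.1 CPM (log2 change 0.91 ± 0.27 SE, edgeR adjusted p = 0.379). Cd7, an immunoglobulin superfamily receptor of early lymphoid cells, stood at 695 and 655 against 363 and 362 CPM (log2 change 0.90 ± 0.19 SE, edgeR adjusted p = 0.0799). Emb and Ctla2a of the immature list were lower in the fit. Emb, an immunoglobulin superfamily gene, stood at 351 and 462 against 488 and 475 CPM (log2 change -0.24 ± 0.20 SE, edgeR adjusted p = 0.923), and Ctla2a, a cathepsin inhibitor gene, at 157 and 330 against 520 and 219 CPM (log2 change -0.62 ± 0.69 SE), where the groups overlapped.

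Cxcr6 encodes the receptor for CXCL16, by which liver and other tissue lymphocytes are retained. It stood at 227 and 161 CPM with BPTES and at 91.8 and 58.1 CPM with DMSO, without overlap (log2 change 1.34 ± 0.27 SE, edgeR adjusted p = 0.0568). It was detected in 26 of 50 and 16 of 56 cells against 8 of 32 and 4 of 21, and 1 cell held 31.6% and 41.2% of its UMIs in the DMSO libraries. Itga1 stood at 331 and 146 against 143 and 133 CPM (log2 change 0.79 ± 0.42 SE, edgeR adjusted p = 0.842), Itga2 at 217 and 331 against 370 and 386 CPM (log2 change -0.46 ± 0.22 SE, edgeR adjusted p = 0.778), and Cd200r1 at 128 and 53.1 against 31.4 and 30.7 CPM (log2 change 1.55 ± 0.45 SE, edgeR adjusted p = 0.443). The Itga1 and Cd200r1 values rested on BPTES library 1. Without it their log2 changes were 0.09 and 0.78, and without BPTES library 2 they were 1.27 and 2.05 and passed (edgeR adjusted p = 0.000709 and 0.000203). Cd200r1 also passed without DMSO library 2, at 1.53 (edgeR adjusted p = 0.0493). Itga2 moved from -0.18 without BPTES library 1 to -0.78 without BPTES library 2, and passed in neither. Of the 8 genes of the group 1 innate lymphoid cell list 5 were higher, 3 lower and none passed, with a median of 0.49. The list summed to 1539 and 922 CPM with BPTES and to 1027 and 844 with DMSO, and those sums overlapped. Inpp4b overlapped at 437 and 245 against 358 and 342 CPM (log2 change -0.03 ± 0.25 SE). Il7r did so at 130 and 131 against 94.3 and 133 CPM (log2 change 0.22 ± 0.25 SE). Tgfbr1, a receptor for TGF-beta, stood at 119 and 143 against 41.1 and 64.9 CPM (log2 change 1.35 ± 0.30 SE, edgeR adjusted p = 0.105). Of 26 tested trafficking genes 19 were lower and 7 higher, with none past the test.

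These values differed between definitions of the member set. Among the 91 members with an Eomes UMI, the log2 fold change of Cxcr6 was -0.04 (SE 0.42), of Cd7 -0.11 (SE 0.23), of Cd200r1 -0.24 (SE 0.65) and of Ccl5 -0.12 (SE 0.26). Prf1 kept its sign at -0.58 (SE 0.24), Cd27 at 0.75 (SE 0.31), Bhlhe40 at -1.17 (SE 0.24) and Dusp1 at -1.43 (SE 0.30). Itgam stood at -0.23 (SE 0.25). In that set 3 genes passed, Dscam, Igkc and Igha. The set was chosen after seeing that Eomes detection differed between the libraries.

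**Figure D5:**
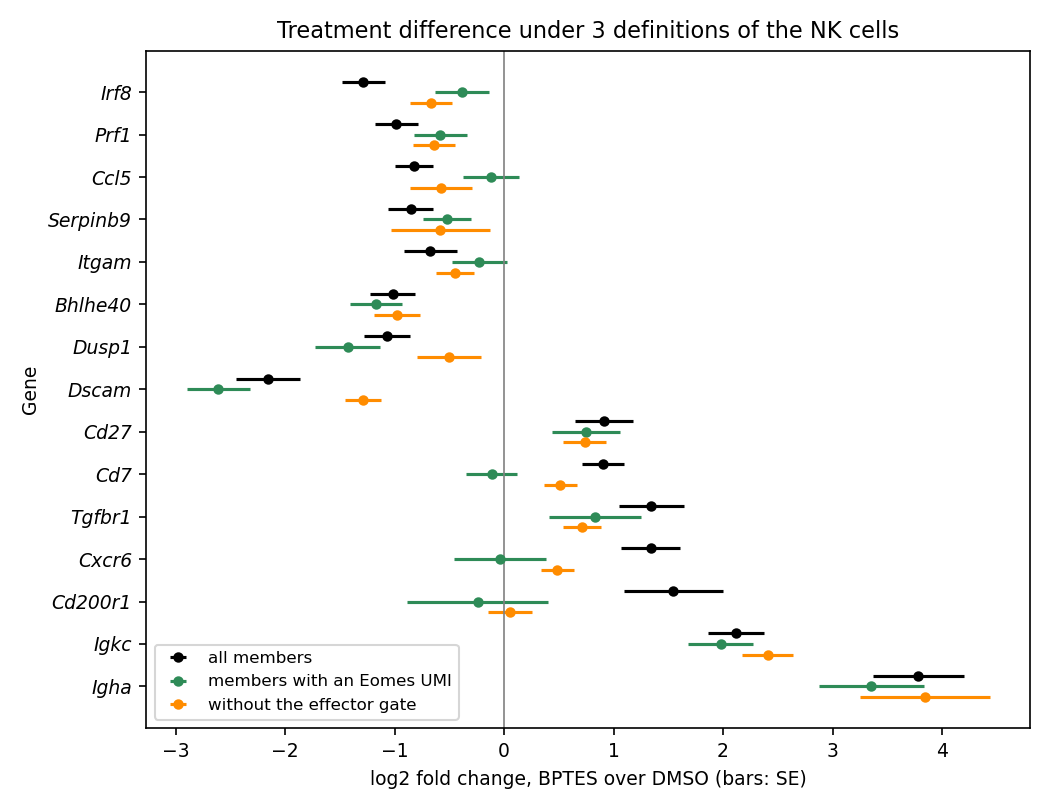
Log2 fold change of BPTES over DMSO (x axis, bars show the SE) for 15 genes (y axis) in all members, in members with an Eomes UMI, and in barcodes taken without the effector condition. Cxcr6, Cd7 and Cd200r1 lie right of 0 in all members and near 0 in those with an Eomes UMI, while Dscam, Igkc and Igha stay on their side in each set, though Igha does not pass without the effector condition.

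BPTES acts on glutamine metabolism, and genes of glutamine and amino acid use were examined in the NK cells. The glutamine transporter genes Slc38a2 and Slc38a1 stood at 305 and 308 against 312 and 324 CPM and at 181 and 163 against 210 and 154 CPM. Glud1, which turns glutamate into alpha-ketoglutarate, stood at 202 and 182 against 227 and 181 CPM. Of 19 tested genes of the list 13 were higher and 6 lower, none passed, and the median was 0.33. Among 6 tested genes of the ATF4 amino acid stress response 2 were higher and 4 lower (median -0.05), and of 14 glycolysis genes 8 were higher and 6 lower (median 0.09), with none past the test in either.

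Dusp1, an immediate early phosphatase gene that tissue digestion can induce, stood at 113 and 125 against 239 and 263 CPM (log2 change -1.07 ± 0.21 SE, edgeR adjusted p = 0.0568), and 1 cell gave 54.5% of its UMIs in DMSO library 1. The co-chaperone genes Dnaja1 and Stip1 went the other way. Dnaja1 stood at 712 and 1127 against 392 and 458 CPM (log2 change 1.13 ± 0.23 SE, edgeR adjusted p = 0.0568, DESeq2 adjusted p = 0.0341), and Stip1 at 119 and 166 against 43.5 and 64.9 CPM (log2 change 1.43 ± 0.30 SE, edgeR adjusted p = 0.0737). T cells had fold changes of like sign for both, 1.02 for Dnaja1 and 1.08 for Stip1 on the log2 scale. Of the 20 genes in the immediate early and dissociation list 14 were lower and 6 higher, and none passed.

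The remaining genes of lowest p did not pass. Trbc2, a T cell receptor constant gene, stood at 259 and 297 against 96.7 and 167 CPM (log2 change 1.11 ± 0.25 SE, edgeR adjusted p = 0.106), while Trbc1 overlapped at 322 and 370 against 358 and 376 CPM. Lpar6, a lysophosphatidic acid receptor gene, stood at 69.4 and 64.0 against 21.8 and 20.5 CPM (log2 fold change 1.65, edgeR adjusted p = 0.178), and Gpx8 at 11.8 and 21.8 against 62.8 and 78.6 CPM (log2 fold change -2.04, edgeR adjusted p = 0.0568). Trat1, a T cell receptor-associated adaptor gene, was detected in 9 and 6 cells with BPTES and in 1 and 0 with DMSO.

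Finally, the treatment effect in NK cells was set against that in 3433 T cells of the same libraries, barcodes with at least 2 CD3 UMIs and at most 1 receptor UMI. The difference passed for 8 of 12887 genes (0.0621%), 3 more positive in NK cells (0.0233%) and 5 more negative (0.0388%). Klf2 differed by -1.20 (SE 0.20, edgeR adjusted p = 0.00751), made up of -0.55 in NK cells and 0.67 in T cells (287 and 369 against 212 and 200 CPM there), neither of which passed on its own (edgeR adjusted p = 0.619 and 0.177). Cxcr6 differed by 1.26 (SE 0.25, edgeR adjusted p = 0.0488). Of the genes that fell in NK cells, Snap47 passed this test, and Irf8, Dscam and Cabcoco1 did not. Irf8 differed by -0.80 (SE 0.22, edgeR adjusted p = 0.374), with -0.49 in T cells. Dscam differed by -0.86 (SE 0.60), with -1.36 in T cells. Cabcoco1 differed by -2.69 (SE 0.84, edgeR adjusted p = 0.51), with -0.10 in T cells. Within T cells alone 2 of 13736 genes passed (0.0146%). All 8 calls of the difference were lost without DMSO library 1, where 3 other genes passed, although the difference stayed at -1.30 for Klf2 and 1.47 for Cxcr6 (edgeR adjusted p = 0.265 and 0.533).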

How the data were processed

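Single-cell libraries of kidney (2 BPTES, 2 DMSO) were analysed from the deposited counts, raw UMI counts per gene and barcode made by the authors with Cell Ranger 8.0.1 on mm10, per the submitters' processing notes. The annotation is not given in the sources used here. Members were chosen by the UMI rule given above. Members and gene lists were chosen with earlier results of these data known. UMI counts were summed per library and tested with edgeR 4.0.16 (R 4.3.3; quasi-likelihood, robust, TMM, filterByExpr), with Benjamini-Hochberg adjustment over all genes tested; the 17 rule genes were left out of the adjustment. The SE was derived from the F statistic. DESeq2 1.42.0 was an alternative. Cell numbers were tested with edgeR on 5 leukocyte classes. The difference from T cells was an interaction with library as a block. The naming rule selected the rule genes and genes past the threshold with a mean of at least 50 CPM and groups that did not overlap. It added genes of lowest p up to 20. From each of 17 lists it took the 4 most abundant genes, and from each of 9 lists of other cell types the 2 most abundant. Only part of these list genes are given values in the text. Cd27, Itgam, Cd200r1, Cd226, Itga2, Itga1, Klf2, Tbx21, Gzmb, Cabcoco1, Kcnq5, Rgs16, Myo1e, Rab27a, Tnfsf10, Cd209a, Mrc1, Flt1 and Emcn were named after their values were seen. Some genes that the rule or the tests would name are not reported here. Doublets were scored with Scrublet in scanpy 1.11.5 and kept, with removal as an alternative; 8 of 159 members scored as doublets. On simulated data with 7146 genes the NK comparison recovered 40% of genes changed by 1 and 95% of those changed by 2 on the log2 scale, with 3 false calls. The changed genes were drawn from those averaging at least 20 UMIs a library. Their spread followed the trend over all genes, without extra spread from single genes or single cells. These rates therefore do not cover genes with fewer UMIs or with many UMIs from 1 cell.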

Additional observations from a re-analysis of the deposited data

Results flagged for a closer look

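Treatment effects differed between NK cells and T cells for 8 genes by the edgeR test of the difference itself, and those described here are given as the effect in NK cells minus that in T cells on the log2 scale. The difference was -1.47 for Kcnq5, -1.20 for Klf2, -2.78 for Snap47 and -2.90 for Klra7, and it was 4.03 for Rgs16, 1.26 for Cxcr6 and 1.15 for Myo1e. Such a difference can come from a change in either cell type. Klra7 overlapped in NK cells, at 135 and 338 CPM with BPTES and 503 and 280 with DMSO (log2 change -0.74, edgeR adjusted p = 0.933). It was scarce in T cells, at 1.90 and 5.57 against 0.462 and 1.06 CPM (log2 change 2.28). Rgs16 was found in 6 and 3 NK cells with BPTES and in 1 and 1 with DMSO, with 60% and 76.9% of the BPTES UMIs from 1 cell. Kcnq5, a potassium channel gene, stood in NK cells at 536 and 462 CPM with BPTES and 684 and 775 with DMSO, and Myo1e, a myosin gene, at 284 and 197 against 213 and 130. None of the 8 passed without DMSO library 1, and 2 of them passed without DMSO library 2. The differences kept their sign in both fits, at -1.55 and -1.38 for Kcnq5, -1.30 and -1.10 for Klf2, -3.19 and -2.35 for Snap47, -1.96 and -4.00 for Klra7, 4.96 and 3.23 for Rgs16, 1.47 and 1.13 for Cxcr6, and 1.51 and 0.90 for Myo1e. With 2 libraries in each group, no group was large enough to look for a library apart from the others.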

How the results depend on the processing

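The 6 genes called in NK cells became 56 with no low-count filter, 17 with the replicate number as a block, 13 at a limit of 25% mitochondrial UMIs, 22 under a stricter NK rule, 15 without the effector condition (Igkc and Dscam are the 2 of the 6 among them) and 3 in members with an Eomes UMI. Leaving out one library gave 44 to 96. DESeq2 gave 8, RLE scaling 6, removal of predicted doublets 7 and crossed replicate numbers 8. The 8 genes whose effect differed from T cells became 4 with DESeq2, 65 with no filter, 22 without predicted doublets and 13 under the stricter rule, and 3 to 63 with one library left out. Why these counts moved was not tested. Among the single genes, 15 that had not passed did so with no filter, 10 with the replicate block, 12 under the stricter rule and 7 at the 25% limit. Prf1, Cxcr6, Cd7, Bhlhe40, Serpinb9, Ccl5, Tgfbr1, Cd226, Cd200r1 and Itga1 were among those that passed in at least 1 fit with a library left out. The NK cell share kept its direction under each alternative, with log2 ratios from 0.90 to 1.33 when a library was left out, and lost its call with an Eomes UMI required (0.70) and with the replicate block (1.09). Among members with an Eomes UMI the sign reversed for Cxcr6 (-0.04), Cd7 (-0.11), Cd200r1 (-0.24), Cd226 (-0.00), Itga2 (0.10) and Itga1 (-0.56). The deviations of BPTES library 1 and DMSO library 1 from their group means correlated at -0.148 across genes, and the numbers were not taken to pair the libraries. In those fits a group with 1 library is assumed to vary like the other group. The alternatives without the effector condition, with an Eomes UMI and with crossed numbers were chosen after seeing the data. DMSO library 2 held 21 members, the fewest.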

Other observations

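Cycling cells were few and unevenly spread. Cells with at least 2 UMIs of Mki67 and Top2a together numbered 8 of 50 and 3 of 56 in the BPTES libraries and 3 of 32 and 2 of 21 in the DMSO libraries, with 381, 7, 11 and 73 UMIs of the pair. The 15 cell cycle genes summed to 2205 and 535 CPM with BPTES and 544 and 1629 CPM with DMSO, so 1 library of each group carried most of the signal. The chromatin gene Hmgb2 followed at 762 and 266 against 271 and 635 CPM, with 48.4% of its UMIs in DMSO library 2 from 1 cell. The 23 interferon response genes summed to between 932 and 984 CPM in all 4 libraries, and none of the 10 tested passed.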
